A study of Mus musculus with 2 samples.

Results

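The p53 genes described here are *Trp53*, which encodes p53, and 9 genes that p53 is known to activate: *Mdm2*, *Cdkn1a*, *Ccng1*, *Bax*, *Bbc3*, *Pmaip1*, *Trp53inp1*, *Sesn2* and *Phlda3*. They were chosen by name from knowledge of the pathway, with earlier results of these data known. Their probes were found through the RefSeq accessions of the array. These 10 of 20281 named genes had 12 of 26756 named probes, and all 10 were well above background on both arrays, as were 14770 of all named genes. The samples were whole C57BL/6 embryos at E7.5, 1 heterozygous (*Dullard+/-*) and 1 homozygous (*Dullard-/-*) for a targeted *Dullard* allele, with 1 array each on the same slide and in the same scan. *Dullard* (now *Ctdnep1*) encodes a protein phosphatase, and the study asked what its loss does to signalling and to germ cell formation in the early embryo. The study made a null allele without any of the exons and a *LacZ* allele without some of them, in embryonic stem cells of different strain origin. The sources used here do not give which allele the arrayed embryos had. The heterozygous embryo, which has lost a copy of *Dullard*, is the reference, and no array of a wild-type embryo was analysed here.

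p53 is a transcription factor that damage and other stresses stabilize, and that switches on genes for cell cycle arrest and for cell death. Its target *Mdm2* encodes the ubiquitin ligase that marks p53 for destruction, so that the pathway limits itself. The rapidly dividing cells of the early mouse embryo are known to die readily by p53-driven apoptosis.

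Each genotype has 1 embryo, so nothing here was checked in replicates, no test was run, and the number of arrays limits the precision. Values are the background-subtracted spot signals of the scanner, and each fold change is the *Dullard-/-* over the *Dullard+/-* signal after both were divided by the 75th percentile of their own array, 286 and 264 respectively. The error after ± comes from the SD of replicate spots, carried through to the gene, and it holds no spread between embryos. A probe with 5 or more spots has the error of its own spots, which shrinks with their number. Other probes have that of replicated probes at a similar brightness. Among the 3747 genes with several probes, the pooled SD between those probes was 0.29 on the log2 scale. The *Dullard* probe (NM_026017) read 672 and 144, a log2 fold change of -2.11 ± 0.06, and 2 of the measured genes were lower.

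None of the 10 genes reached a 1.5-fold difference between the embryos in either direction. Of all genes measured, 3.92% had a rise and 3.37% a fall of 1.5-fold or more from the *Dullard+/-* to the *Dullard-/-* embryo, and 0.894% and 0.765% one of 2-fold or more. The log2 fold changes of the 10 genes had a median of 0.07 and ran from -0.22 for *Cdkn1a* to 0.56 for *Bbc3*. Of the 10, 8 were above 0 and 2 below, against 7678 and 7092 of all genes, whose median was 0.01. Against so low a background, a count of 0 among 10 genes is not a result about these genes. In RNA of a whole embryo, fewer cells of a type and less RNA per cell cannot be told apart.

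**Figure D1:**
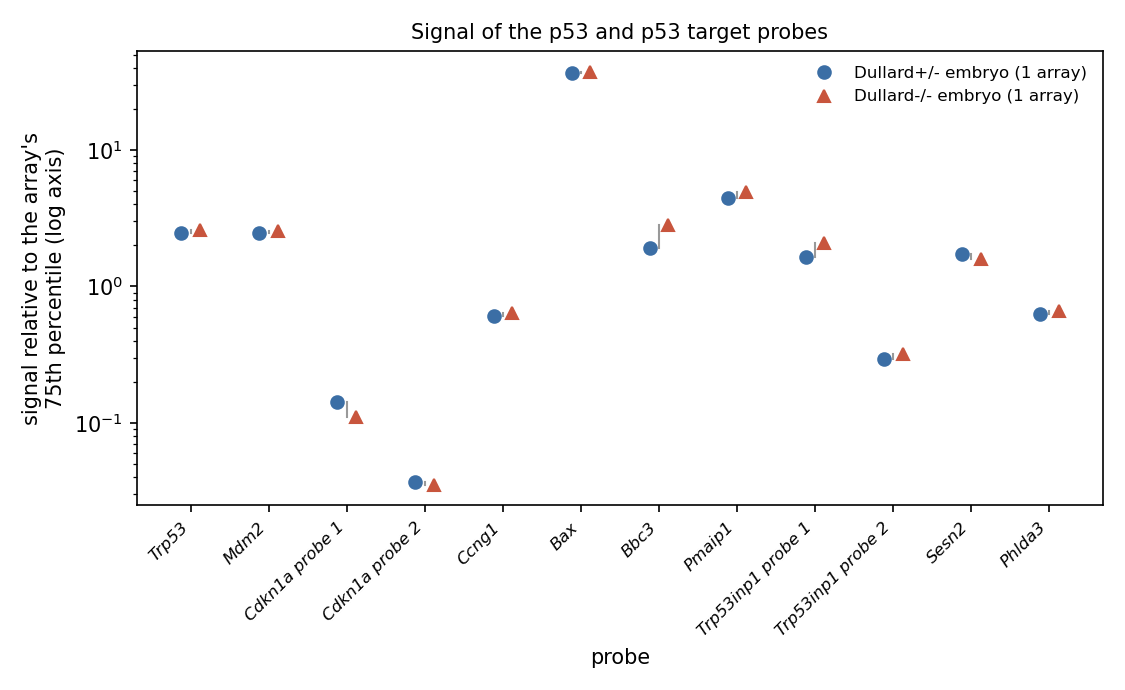
Signal of the 12 probes of *Trp53* and its 9 targets in the *Dullard+/-* embryo (circles) and the *Dullard-/-* embryo (triangles), relative to the 75th percentile of each array on a log axis, with grey lines joining the values of a probe. The symbols lie close together for most probes, with the widest gap upwards for *Bbc3* (1.47-fold) and downwards for the brighter *Cdkn1a* probe (1.29-fold); heights of different probes are not comparable.

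The transcript of p53 itself and that of its ligase were at nearly the same level in both embryos. The *Trp53* probe (NM_011640) read 701 in the *Dullard+/-* and 681 in the *Dullard-/-* embryo, which after scaling was a log2 fold change of 0.07 ± 0.05, or 1.05-fold higher. The *Mdm2* probe (NM_010786) read 707 and 680, a log2 fold change of 0.06 ± 0.05, or 1.04-fold higher. Both raw signals were slightly lower on the *Dullard-/-* array, and the sign turned with the scaling, since that array was dimmer as a whole. Both differences were about the size of the error between spots. p53 is controlled mainly through the stability of its protein, which the arrays do not measure. *Trp53* lies on chromosome 11, as *Dullard* does, with 36 protein-coding genes between them in the RefSeq gene order. Of these, 30 were measured and 2 of them were past 1.5-fold, with a median of -0.04 on the log2 scale. Among all genes measured, 3.92% were higher and 3.37% lower by that much, so the count is not a result about these neighbours.

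Of the genes that act on the cell cycle, *Cdkn1a* was lower in the *Dullard-/-* embryo and *Ccng1* was near equal. *Cdkn1a* encodes p21, the cyclin-dependent kinase inhibitor through which p53 halts the cycle. Its first probe (NM_007669) was spotted 10 times on each array, and 9 spots were without an outlier mark. On the *Dullard+/-* array their signals had a lowest value of 37.0, a median of 40.4 and a highest value of 44.3, and on the *Dullard-/-* array these were 26.1, 28.8 and 34.1. All 10 spots, the marked one included, were lower in the *Dullard-/-* embryo. The log2 fold change of single spots ran from -0.62 to -0.10, and that of the probe was -0.37 ± 0.05, or 1.29-fold lower. Relative to the 75th percentile, the kept spots read 0.130 to 0.155 in the *Dullard+/-* and 0.0988 to 0.129 in the *Dullard-/-* embryo, so that they did not overlap, while the spot left out, at 0.125 in the *Dullard+/-* embryo, lies within the lower range. These spots measure the same RNA of the same embryos again, so their agreement gives the precision of the array and not the spread between embryos. The second probe (NM_001111099) was close to background, at 10.6 and 9.34, with a log2 fold change of -0.07 ± 0.30. The mean of both probes was -0.22 ± 0.15, or 1.16-fold lower. When all genes were put into 4 equal groups by signal, the dimmest group, where *Cdkn1a* lies, had 17.6% past 1.5-fold in either direction. *Ccng1* (NM_009831) encodes cyclin G1, a p53 target that feeds back on the pathway. Its probe read 174 and 168, a log2 fold change of 0.06 ± 0.08.

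**Figure D2:**
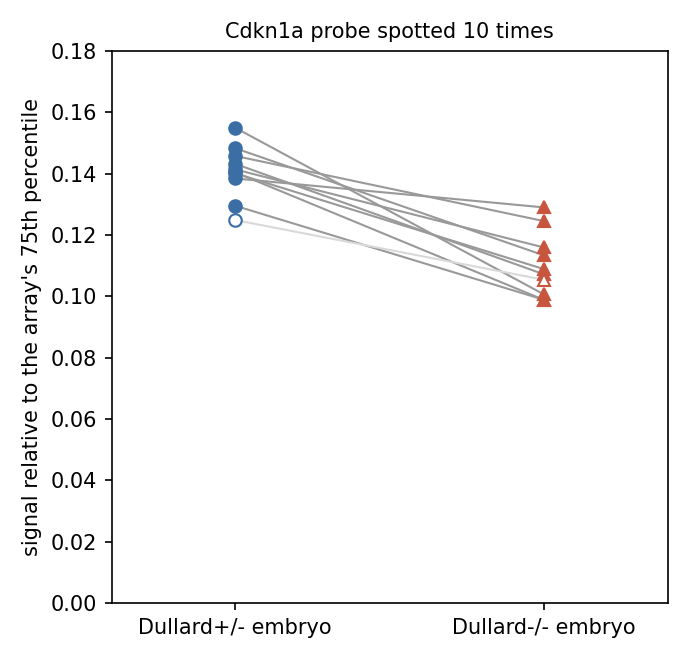
Signal of the 10 replicate spots of the *Cdkn1a* probe NM_007669 relative to the 75th percentile of each array, with lines joining the same spot on both arrays and an open symbol for the spot left out for its outlier mark. All 10 lines run downwards from the *Dullard+/-* to the *Dullard-/-* embryo, by log2 fold changes between -0.62 and -0.10.

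Of the 3 death genes of the BCL2 family, *Bax* was near equal in both embryos, and *Pmaip1* and *Bbc3* were higher in the *Dullard-/-* embryo, with *Bbc3* well ahead. *Bax* encodes the effector that opens the outer mitochondrial membrane, and its probe (NM_007527) read 10434 and 9927, a log2 fold change of 0.04 ± 0.04. *Pmaip1* encodes NOXA, a BH3-only protein that binds MCL1, and its probe (NM_021451) read 1264 and 1309, a log2 fold change of 0.16 ± 0.05, or 1.12-fold higher. *Bbc3* encodes PUMA, the BH3-only protein that carries much of the death signal of p53. Its probe (NM_133234) read 549 in the *Dullard+/-* and 746 in the *Dullard-/-* embryo. After scaling this was a log2 fold change of 0.56 ± 0.06, or 1.47-fold higher. This was the only one of the 10 genes close to the 1.5-fold mark, and it passed that mark, at 0.59, with each array scaled to its median instead. That scaling raised every gene alike, and 4.56% of all genes were past the mark with it. Of all 14770 genes, 652 (4.41%) had a higher fold change. *Bbc3* lies in the brightest of the 4 signal groups, where 30 of 3693 genes had a higher fold change and 0.704% a rise of 1.5-fold or more. It has a single probe on the array, so there is no second probe to set beside it.

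Of the other targets, *Trp53inp1* was higher and *Sesn2* lower, both by at most 1.17-fold. *Trp53inp1* encodes a nuclear protein that promotes p53-driven death and also acts in autophagy. Its probes (both NM_021897) read 474 and 549, with a log2 fold change of 0.33 ± 0.05, and 84.1 and 85.2, with 0.13 ± 0.10. Both lay above 0, and their mean was 0.23 ± 0.06, or 1.17-fold higher. *Sesn2* encodes sestrin 2, which restrains mTORC1 under stress, and is also a target of the integrated stress response. Its probe (NM_144907) read 493 and 418, a log2 fold change of -0.13 ± 0.06, or 1.09-fold lower. *Phlda3* encodes a repressor of Akt, and its probe (NM_013750) read 179 and 175, a log2 fold change of 0.08 ± 0.08.

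**Figure D3:**
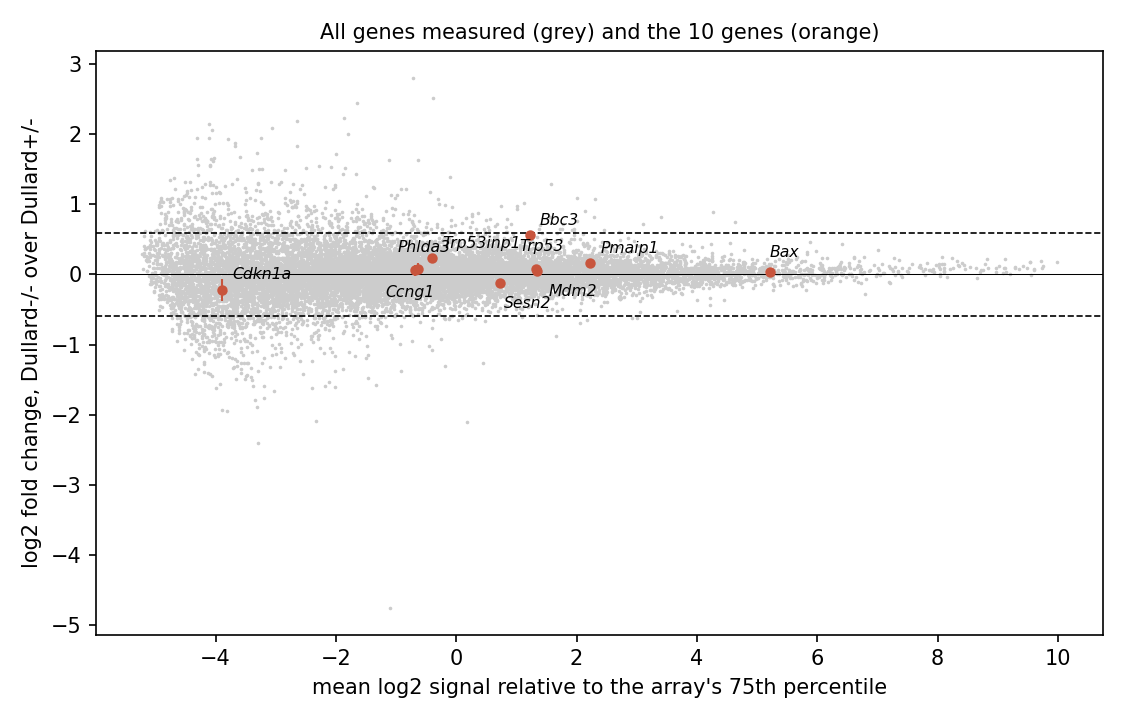
Log2 fold change (*Dullard-/-* over *Dullard+/-*) of the 14770 measured genes (grey) against their mean log2 signal relative to the 75th percentile of the arrays, with the 10 p53 genes in orange, bars for the error between spots, and dashed lines at 1.5-fold. The scatter narrows as the signal rises, and all 10 genes lie within the lines, *Bbc3* just under the upper one.

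The promoters of several of these genes hold a match to the p53 half-site, and the stretches are printed to show what was found near their starts. p53 binds as a tetramer to a pair of p53 half-sites of 10 bases each, with a short spacer or none between them. The consensus half-site was searched in the 300 bases from 250 before to 50 after each RefSeq gene start (GRCm38.p6), and it reads the same on both strands. Of the 8 genes with such a window, 5 held it: *Trp53*, *Mdm2*, *Cdkn1a*, *Ccng1* and *Bax*. It was in 8.36% of all 32851 windows, or 9.55% of 27025 genes. *Bbc3*, with 3 windows, *Sesn2* and *Phlda3* had no match within these windows, which says nothing of sites farther away. Only *Cdkn1a* among the 8 held a pair of full matches, in 1 of its 2 windows. There a second half-site followed after 12 bases, a spacing of 13 bases or less that was found in 0.0731% of all windows. Near matches to the consensus were not marked, also where they lie right beside a marked half-site. The stretches around the matches, read in the direction of the gene with the half-sites in capitals, were:
Trp53, chr11:69580264-69580313, plus strand: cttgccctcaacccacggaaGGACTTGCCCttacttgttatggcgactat
Mdm2, chr10:117710915-117710964, minus strand: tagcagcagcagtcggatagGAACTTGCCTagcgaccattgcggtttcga
Cdkn1a, chr17:29090886-29090957, plus strand: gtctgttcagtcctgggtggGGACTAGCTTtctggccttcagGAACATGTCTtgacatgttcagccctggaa
Ccng1, chr11:40755442-40755491, minus strand: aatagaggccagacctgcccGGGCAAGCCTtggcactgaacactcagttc
Bax, chr7:45467070-45467119, minus strand: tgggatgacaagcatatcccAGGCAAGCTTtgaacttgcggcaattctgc
The genes with a match had log2 fold changes from -0.22 to 0.07, and the 3 searched without a match from -0.13 to 0.56. A match describes these letters and not a site that p53 was measured on.

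Of 37 further p53 target genes, 34 were measured, and 2 were higher and 0 lower by 1.5-fold or more, beside backgrounds of 3.92% and 3.37%. Both were also past 2-fold. *Rprm*, which encodes reprimo, an inhibitor of the cell cycle at G2, read 40.7 and 89.4, a log2 fold change of 1.25 ± 0.12. After the normexp background correction it was at 0.56, inside 1.5-fold. *Epha2*, an ephrin receptor also expressed at the primitive streak of the gastrula, read 971 and 1883, a log2 fold change of 1.07 ± 0.05. *Ercc5*, a nuclease of DNA repair, was at 0.57 ± 0.12, and *Pidd1*, which builds the caspase 2 complex, at 0.47 ± 0.12. The 34 genes ran from -0.40 to 1.25 with a median of 0.05, and 19 were above 0 and 15 below. *Fas*, *Eda2r* and *Lif* were not well above background on either array.

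All 24 listed regulators and relatives of p53 were measured, and 0 of them reached 1.5-fold, beside 3.92% of all genes higher and 3.37% lower. The median of the 24 was 0.04 and their range -0.41 to 0.33, with 16 above 0 and 8 below. *Mdm4*, whose protein binds and inhibits p53 beside MDM2, was lowest, and its 2 probes were alike at -0.40 ± 0.08 and -0.41 ± 0.09. *Hipk2*, a kinase that phosphorylates p53, was at -0.28. *Cdkn2a*, the locus of the MDM2 inhibitor ARF, was at 0.33, and *Rchy1*, a ligase for p53, at 0.29.

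In the BCL2 family outside the 10 genes, 1 measured gene was at least 1.5-fold higher and 0 lower, where 3.92% and 3.37% of all genes were. Of 8 anti-apoptotic genes, 4 were measured, with a median log2 fold change of -0.09, 1 above 0 and 3 below. *Bcl2* was lowest, at 376 and 273, a log2 fold change of -0.35 ± 0.06. *Bcl2l1*, which encodes BCL-XL, and *Mcl1* had probes that disagreed in direction. They gave 0.16 and -0.39 for *Bcl2l1*, and 0.22 and -0.04 for *Mcl1*. *Bcl2l2* was at -0.08. Of the 10 pro-apoptotic genes, all measured, 1 was past 1.5-fold, 7 were above 0 and 3 below, and the median was 0.08. *Bik*, a BH3-only gene, was at 0.98 ± 0.30, from signals of 7.51 and 13.7 that lie just over background, in the dimmest of the 4 signal groups, and it was at 0.32 after the normexp background correction. *Hrk*, also BH3-only, was at 0.56 ± 0.30. *Bnip3* and *Bnip3l*, which act in mitophagy and respond to low oxygen, were at 0.48 ± 0.09 and 0.28 ± 0.03.

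Downstream of the mitochondria, 14 of 14 listed caspase, apoptosome and nuclease genes were measured, and 4 were above 0 and 10 below, with a median of -0.06. *Casp8*, the initiator caspase of the death receptors, read 37.5 and 51.8 and was at 0.58 ± 0.14. *Dffb*, the nuclease that cuts DNA in dying cells, was at -0.15 ± 0.30. The 6 inhibitors of apoptosis had a median of 0.08 and 0 past 1.5-fold, from -0.35 ± 0.23 for *Birc3* to 0.27 ± 0.08 for *Birc2*. *Naip1* and *Birc6* were both at 0.14. Of 11 genes of the death receptor route and of necroptosis, 9 were measured and 0 were past 1.5-fold, with a median of -0.08. For both of these lists, the share of all genes past 1.5-fold was 3.92% higher and 3.37% lower. The adaptor *Tradd* was at -0.41 ± 0.11, the kinase *Ripk1* at -0.34 ± 0.12, the adaptor *Fadd* at -0.23 ± 0.08 and the receptor *Tnfrsf1a* at 0.28 ± 0.04.

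**Figure D4:**
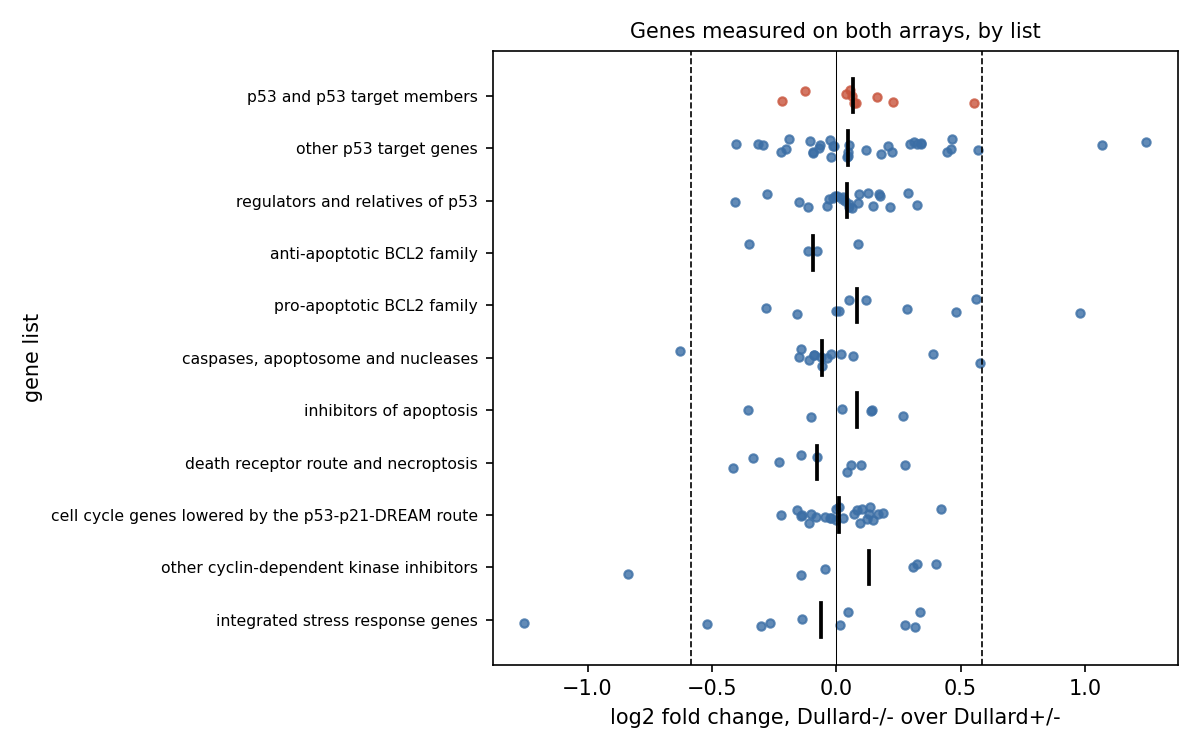
Log2 fold change (*Dullard-/-* over *Dullard+/-*) of each measured gene of the p53 and cell death lists, 1 point per gene, with a black bar at the median of the list and dashed lines at 1.5-fold. The medians of all lists lie between -0.09 and 0.13, and few points lie outside the lines. Among them are *Rprm* (1.25), *Epha2* (1.07) and *Bik* (0.98) on the right, and *Atf3* (-1.26) and *Cdkn2b* (-0.84) on the left.

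Markers of the tissues of the E7.5 conceptus were checked beside these values. All 9 markers of the epiblast and embryo proper and all 8 of the visceral endoderm were measured, and the summed signal relative to the 75th percentile was 32.5 and 45.2 for the former and 177 and 164 for the latter. In the first of these lists *Mixl1* (log2 fold change 1.39), *Fgf8* (0.94), *Otx2* (0.82) and *Eomes* (0.76) were past 1.5-fold higher and *T* (-1.19) past 1.5-fold lower. The other markers of that list, *Sox2* (0.44), *Utf1* (0.07), *Mesp1* (-0.04) and *Pou5f1* (-0.06), were within 1.5-fold. *Otx2* alone gave 7.96 and 14.1 of the sums of that list. In the visceral endoderm list 0 were past 1.5-fold. Of 8 trophoblast markers 6 were measured, with sums of 3.97 and 3.48. *Ascl2* (-0.74) and *Plac1* (-0.61) were past 1.5-fold lower and *Prl3d1* (1.07) higher. Of 9 markers of the decidua 4 were measured on both arrays, and 0 of these were past 1.5-fold. Among all genes measured, 3.92% were higher and 3.37% lower by that much. A count of 0 in so short a list is therefore not a result about that tissue. The sums over all 9 decidual markers were 2.76 and 2.75, most of it from *Cryab*, whose brighter probe gave 2.22 and 2.15 of them. *Hoxa11*, at 5.74 and 20.9, was well above background in the *Dullard-/-* embryo alone. It was at least 3.64-fold higher there. The decidual prolactin gene *Prl8a2* was not well above background on either array. Of 6 markers of red blood cells 4 were measured on both arrays. The adult β-globin genes *Hbb-bt* and *Hbb-bs* were well above background in the *Dullard+/-* embryo alone. In the *Dullard-/-* embryo *Hbb-bt* was at least 7.19-fold and *Hbb-bs* at least 2.93-fold lower. *Hba-a2* (-1.38), *Hba-a1* (-0.95) and *Alas2* (-0.61) were also past 1.5-fold lower. The summed signal of the 6 markers was 6.16 and 6.19, most of it from *Car2*, which went the other way at 3.99 and 5.29. Whether these differences in markers take part in the values of the p53 genes was not tested.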

How the data were processed

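RNA of 1 *Dullard+/-* and 1 *Dullard-/-* embryo was measured on 1-colour Agilent arrays. The authors deposited spot intensity values of Agilent Feature Extraction 10.10, background-subtracted, and a table of the same intensity values times a constant per array. The labels and the study's methods name different amplification kits. Spots with an outlier mark (206 of 43020) were left out, spots of a probe averaged, and log2 signals taken relative to the 75th percentile of the array. Probes had to be well above background on both arrays, and those of a gene were averaged. Of the spots, 31242 on the *Dullard+/-* and 29310 on the *Dullard-/-* array were well above background, and 0 were saturated. RefSeq accessions (GRCm38.p6) named 30235 spots and left 12785 unnamed. The array header gives another build, so no gene coordinates were joined to it. The spot error of a probe with 5 or more spots comes from its own spots, and that of other probes pools the 40 replicated probes nearest in signal. With 1 embryo per genotype no test was made, and genes were counted at 1.5-fold and 2-fold. The members and lists were chosen with earlier results of these data known. Named genes are the 10, *Ctdnep1*, and up to 4 genes per list with the largest fold change in size, some of which are not reported here. The steps were tested on simulated data. The 11 alternatives cover normalization, background, filters and probe averaging. Python 3.11.15, numpy 2.4.6, pandas 2.3.3, statsmodels 0.14.6, matplotlib 3.10.9, R 4.3.3 and limma 3.58.1 were used.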

Additional observations from a re-analysis of the deposited data

How the results depend on the processing

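All 11 alternatives gave values for each of the 10 genes, and *Bbc3* stayed above 0 in each of them, between 0.44 and 0.59, as *Cdkn1a* stayed below 0, between -0.37 and -0.04. *Pmaip1* and *Trp53inp1* also stayed above 0 and *Sesn2* below. *Bbc3*, *Pmaip1* and *Sesn2* have a single probe each, so the alternatives on filters and probe averaging could not move their values. Without scaling, the median of the 10 genes was -0.046 in place of 0.07, that of all genes -0.10 in place of 0.01, and *Trp53* (-0.04), *Mdm2* (-0.06), *Bax* (-0.07), *Ccng1* (-0.05) and *Phlda3* (-0.03) lay below 0. The distance of the 10 genes' median from that of all genes was 0.06 either way. It could not differ, because this scaling shifts every gene by the same amount. *Bax* also lay below 0 under loess. Scaling to the median took the number of the 10 genes at least 1.5-fold higher from 0 to 1, *Bbc3*. With that scaling the median of all genes was 0.05, and 4.56% of them were higher by 1.5-fold or more. With the main scaling, 579 of the 14770 genes were higher and 498 lower by 1.5-fold or more, so that 53.8% of these were higher. These counts were 673 and 421 with scaling to the median, 388 and 782 without scaling (33.2% higher), and 94 and 33 after normexp. They were 321 and 161 of 11966 with probes at 4 times the lowest signal, and 1215 and 1737 of 20281 with no filter on dim probes. *Rprm*, *Bik*, *Cdkn2b* and *Atf3* came inside 1.5-fold after normexp, which shrinks dim probes, and *Cdkn2b* also without the filter. With probes at 4 times the lowest signal, *Atf3*, *Bik*, *Birc3*, *Cdkn2b*, *Chac1*, *Dffb*, *Hrk* and *Naip1* had no value. *Epha2* stayed past 1.5-fold under all 11 and past 2-fold under 9, while *Casp8*, *Ercc5* and *Hrk* passed 1.5-fold under 3 each, and *Cdkn2a* and *Sesn3* under 1 each. *Bcl2l1*, *Birc3*, *Dffb*, *Mcl1* and *Naip1* changed sign under 1 alternative each. No paired analysis was possible because each genotype has 1 embryo.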

Other observations

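Genes outside the death pathways that p53 is known to touch showed the following values. Of 25 cell cycle genes that the p53 and p21 route lowers through the DREAM complex, all were measured and 0 reached 1.5-fold. By that much, 3.92% of all genes were higher and 3.37% lower. Among the 25, 13 were above 0 and 12 below, with a median log2 fold change of 0.01. *Bub1*, a kinase of the spindle checkpoint, was at 0.42 ± 0.01, with a small error because its probe has 10 spots. The phosphatase *Cdc25c* was at -0.22, the replication helicase subunit *Mcm6* at 0.19 and the proliferation marker *Mki67* at 0.17. Of 6 other cyclin-dependent kinase inhibitors, *Cdkn2b* was past 1.5-fold, at 32.3 and 16.7 in the *Dullard+/-* and *Dullard-/-* embryo, a log2 fold change of -0.84 ± 0.21, and at -0.21 after the normexp background correction. *Cdkn1b* was at 0.40 ± 0.05 and *Cdkn2c* at 0.31, and the median was 0.13. Of 10 genes of the integrated stress response, which *Sesn2* also belongs to, 5 were above 0 and 5 below. *Atf3*, a stress-induced transcription factor, read 36.8 and 14.2 and was at -1.26 ± 0.21, past 2-fold lower, and at -0.33 after normexp. *Sesn3*, the relative of *Sesn2*, was at -0.52 ± 0.06, and *Chac1* and *Asns*, both targets of ATF4, at 0.34 ± 0.20 and 0.32 ± 0.05.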
